A study of Mus musculus with 10 samples.

Results

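The 40 interferon-stimulated genes described here form a list of names that holds the ISG15 conjugation genes, the IFIT family, the 2-5A synthetases, nucleic acid sensors, other antiviral effectors, interferon-inducible GTPases, the class I antigen processing genes of the immunoproteasome and TAP transporter, and the genes of PARP9, DTX3L and PARP14. They were found by symbol among the 18384 genes listed in any of 6 mRNA-seq libraries, and all 40 were listed in every library and passed the filter on low counts. The libraries came from adipocyte precursors (APs) of subcutaneous white adipose tissue of C57BL/6J mice, which were depleted of CD45+ and CD31+ cells and then enriched for SCA-1+ cells on magnetic columns. Control cultures (replicates 1, 2 and 3) grew in medium with serum, and IL-4 cultures (replicates 4, 5 and 6) grew in the same medium with the type 2 cytokine IL-4. IL-4 was added a day after seeding, and the IL-4 cultures had 4 days of IL-4. These times are not given in the sample labels and come from the published description of the experiment. No altered genotype and no added interferon is named in these sources, and the IL-4 dose and the age, sex and number of mice per culture are not given in the sources used here. The series text calls the cultures biological replicates, and the p-values below measure the spread between these cultures. IL-4 replicate 6 stood apart from the others, and macrophage markers were present in all cultures.

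Type I interferons signal through the receptor pair IFNAR1 and IFNAR2, the kinases JAK1 and TYK2, and a STAT complex with IRF9 that binds the interferon-stimulated response element (ISRE) of its target genes. Type II interferon has its own receptor, and many of the GTPases and antigen processing genes respond to it. The products block viral replication at several steps, and several of them, such as USP18 and ISG15, feed back on the pathway itself. IL-4 signals mainly through STAT6, which binds sites of its own in target genes.

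Sequences before the start of 6 members are shown first, because they hold matches to the ISRE core and stand for different responses to IL-4. As described below, Ifit1, Irgm1, Rsad2 and Oas3 fell, Isg15 was not called and Oas1a rose. The sequences are RefSeq promoters of build GRCm38.p6, written 5′ to 3′ on the strand of the gene, and cover the 170 bases before the start that the table gives. Capitals mark each match to the ISRE core GAAANNGAAA, searched on both strands, and neighbouring matches can overlap.
Ifit1, chr19:34640719-34640888, plus strand: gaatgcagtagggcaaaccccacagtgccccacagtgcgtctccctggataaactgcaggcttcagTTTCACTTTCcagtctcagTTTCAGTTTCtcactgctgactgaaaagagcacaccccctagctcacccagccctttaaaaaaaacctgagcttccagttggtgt
Irgm1, chr11:48871421-48871590, minus strand: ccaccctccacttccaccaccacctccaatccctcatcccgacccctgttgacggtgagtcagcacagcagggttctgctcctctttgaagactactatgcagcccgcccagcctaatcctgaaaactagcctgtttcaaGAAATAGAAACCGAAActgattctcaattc
Rsad2, chr12:26456453-26456622, minus strand: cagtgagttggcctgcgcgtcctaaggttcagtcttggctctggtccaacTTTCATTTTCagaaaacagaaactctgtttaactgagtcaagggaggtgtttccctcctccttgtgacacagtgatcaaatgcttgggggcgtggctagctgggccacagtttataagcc
Oas3, chr5:120777660-120777829, minus strand: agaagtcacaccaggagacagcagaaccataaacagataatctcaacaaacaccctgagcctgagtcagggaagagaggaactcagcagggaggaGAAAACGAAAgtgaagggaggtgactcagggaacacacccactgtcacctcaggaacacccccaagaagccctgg
Isg15, chr4:156200819-156200988, minus strand: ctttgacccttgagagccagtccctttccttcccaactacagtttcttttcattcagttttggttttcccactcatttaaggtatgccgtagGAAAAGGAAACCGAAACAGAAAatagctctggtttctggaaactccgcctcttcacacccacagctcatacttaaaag
Oas1a, chr5:120907526-120907695, minus strand: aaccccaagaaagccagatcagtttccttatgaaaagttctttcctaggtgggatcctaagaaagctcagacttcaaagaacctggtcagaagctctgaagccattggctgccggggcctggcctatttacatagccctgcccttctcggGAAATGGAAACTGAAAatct

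The 6 stretches differ in the number, strand and distance of the matches. In Ifit1, 2 separate matches on the opposite strand began 104 and 85 bases before the start. In Isg15, 3 overlapping matches began 78, 72 and 66 bases before the start. Irgm1 and Oas1a each held 2 overlapping matches within 30 bases of the start, whereas Oas3 and Rsad2 held 1 match each.

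IL-4 treatment was accompanied by changes in both directions among the interferon-stimulated genes. The libraries held 28526782 to 29057787 expected counts each, as estimated per gene by the authors. Normalized counts are these counts after TMM scaling, FPKM values are the deposited levels per transcript length, and a log2 fold change is that of IL-4 over control cultures from the fit. In a test across 14009 genes (edgeR quasi-likelihood, adjusted p under 0.05), 13 of the 40 members were lower with IL-4, 6 were higher and 21 did not pass. As a background, 37.4% of all genes tested were called, 19% as higher and 18.4% as lower, against 47.5%, 15% and 32.5% of the members. The lower members were Ifit1, Ifit2, Ifit3, Oas3, Dhx58, Eif2ak2, Rsad2, Cmpk2, Ifi44, Trim30a, Gbp2, Gbp3 and Irgm1, and the higher members were Usp18, Oas1a, Zbp1, Lgals3bp, Tap1 and Parp9. The median log2 fold change of the members was -0.16, with quartiles of -0.41 and 0.08, beside a median of 0.00 and quartiles of -0.21 and 0.23 over all genes tested. The members Rsad2, Cmpk2 and Ifi44 were lower by more than 1 on the log2 scale, a size that 5.26% of all genes passed in that direction. The highest member was at 0.93, and 5.77% of all genes were called above 1. The normalized counts of the groups did not overlap for 21 members, or 52.5%, which is close to the 50.4% of all genes.

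The split between higher and lower members depended in part on how libraries were scaled. The count above used TMM scaling, which centres the bulk of genes. When only library totals were used, the median of all genes moved to -0.17, and 2 members were called higher and 21 lower. The same split was 2 to 20 with limma on log2(FPKM + 1), where the median of all genes was -0.13. Relative to the median of all genes, the members' median was -0.16 with TMM, -0.17 with library totals and -0.14 with limma on log2(FPKM + 1). Changes below are given with TMM scaling, and no called member changed its direction under any scaling.

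**Figure D1:**
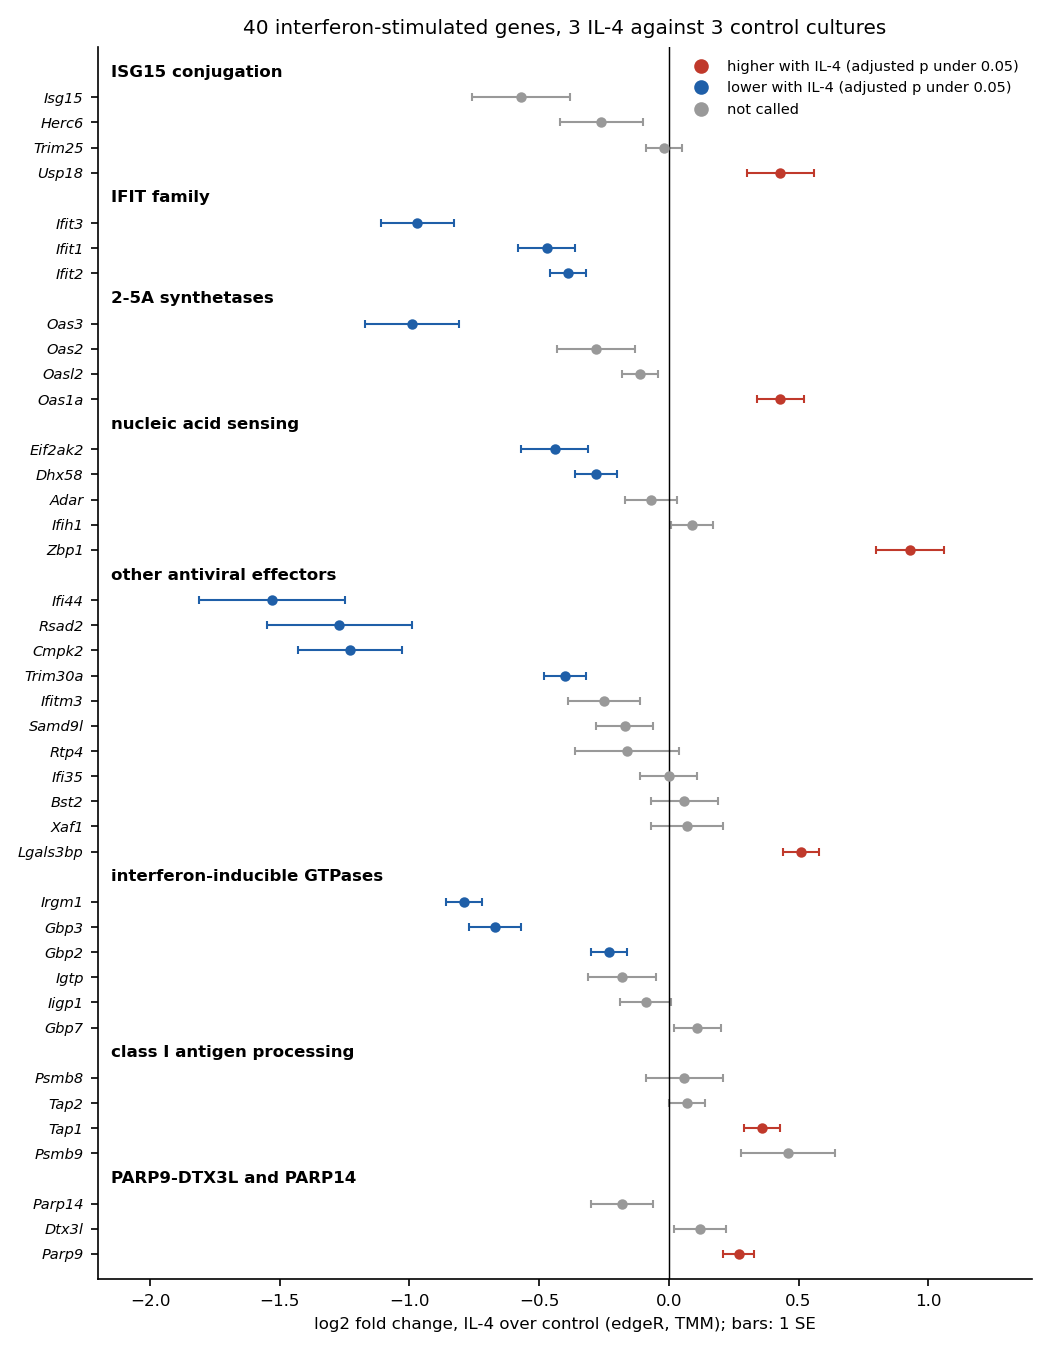
Log2 fold changes of IL-4 over control cultures for the 40 members, grouped by role, with bars of 1 SE from 3 against 3 cultures. Blue marks the 13 members called lower, red the 6 called higher and grey the 21 not called; Ifi44 at -1.53 is the lowest and Zbp1 at 0.93 the highest.

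Cell type markers moved with the groups. The 10 markers of adipocyte precursors were listed in all libraries, with 6 higher and 2 lower with IL-4. Their summed levels were 4181 to 4496 FPKM in controls and 4718 to 5022 FPKM with IL-4. Most of these sums was the collagen gene Col1a1, with mean levels of 3307 FPKM in controls and 3690 FPKM with IL-4. The 12 macrophage markers all passed the filter on low counts too, although CD45+ cells had been removed before culture. Of these, 10 were lower and 1, Mrc1, was higher, and their sum was 3482 to 4489 FPKM in controls and 1403 to 1849 FPKM with IL-4, with mean levels of 2739 and 776 FPKM for Lyz2, the highest of the list. Named after their values were seen, Aif1, Fcgr1 and Cx3cr1 were the most negative of the list, with log2 fold changes of -4.43, -2.91 and -8.65. The markers were not uniform: Adgre1 and Itgam were at -0.24 and -0.27, Cd68 was at 0.38 and not called, and Mrc1 was at 0.82. Of 6 endothelial markers 3 were lower and 1 higher, with sums of 12.8 to 13.1 against 9.27 to 10.2 FPKM. Beside these marker counts, 19% of all genes tested were called higher and 18.4% lower. Dendritic cell markers summed to 2.81 to 3.43 against 25.6 to 27.7 FPKM, through Itgax alone, with Siglech not listed. Zbtb46 had a log2 fold change of 0.04 and was not called, and Flt3, Xcr1, Clec9a, Ccr9 and Spib did not pass the filter. Lymphocyte markers summed to at most 0.27 FPKM in any library, with Cd3e and Cd3g among those not listed. In bulk samples, fewer cells of a type and less RNA per cell cannot be told apart. The part of these marker changes in the levels of the members and of the pathway genes was not tested.

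IL-4 replicate 6 stood apart from replicates 4 and 5 in a way that followed transcript length. Its root mean square log2 distance to the mean of the rest of its group was 0.36, against 0.214 to 0.271 in the other 5 libraries. All 11 members with transcripts under 2000 bases were higher in replicate 6 than in the mean of replicates 4 and 5, with a median log2 ratio of 0.34. Of the 10 members over 4000 bases, 1 was higher, with a median of -0.30. The same was seen over all genes with a mean of at least 50 normalized counts, with medians of 0.25 for 3409 short and -0.26 for 3737 long transcripts. Control replicate 3 deviated the same way over all genes, with medians of 0.13 and -0.11. Isg15 (756 bases), Ifitm3 (648 bases) and Rtp4 (1573 bases) are short members that were not called with all 6 libraries and were called lower without replicate 6, at -0.78, -0.44 and -0.39. Without replicate 6, 7 members were higher and 16 lower. The part of RNA quality in these values was not tested.

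**Figure D2:**
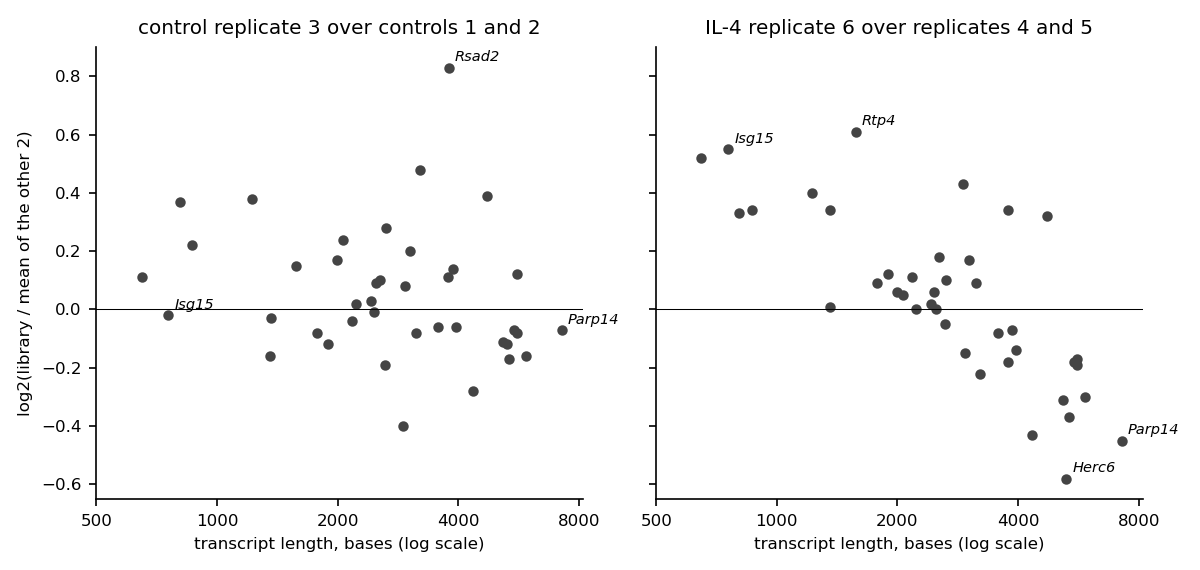
Log2 ratio of 1 library to the mean of the other 2 of its group (vertical axis) against transcript length in bases (log axis) for the 40 members, for control replicate 3 and IL-4 replicate 6. In replicate 6 all 11 members under 2000 bases lie above 0, and all but 1 of the 10 members over 4000 bases lie below 0.

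The 3 IFIT members Ifit1, Ifit2 and Ifit3 all fell, beside 18.4% of all genes tested that were called lower. The IFIT proteins bind foreign RNA ends and block its translation, and the 3 genes lie on chromosome 19, with 6584 bases between Ifit2 and Ifit3 and 51906 between Ifit3 and Ifit1. Ifit3 had 641, 518 and 653 normalized counts in the control cultures and 354, 252 and 317 with IL-4. The groups were well separated, and the log2 fold change was -0.97 ± 0.14 (SE, adjusted p = 0.00101, edgeR). Ifit2 had 837, 850 and 808 normalized counts in the controls against 659, 650 and 596 in the IL-4 cultures, a log2 fold change of -0.39 (adjusted p = 0.00277, edgeR). Ifit1 had 351, 332 and 416 against 276, 239 and 277, a log2 fold change of -0.47 (adjusted p = 0.0123, edgeR). Its call was lost without IL-4 replicate 5 (adjusted p = 0.052). The expected counts of Ifit3 were not whole in any library, and those of Ifit1 were whole in 2 of 6, as happens where reads are divided between similar transcripts.

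The largest decreases were found among the low-level antiviral effectors. Rsad2 encodes viperin, which makes a chain-terminating nucleotide, and Cmpk2 encodes a mitochondrial nucleotide kinase. The genes are neighbours on chromosome 12 with 12664 bases between them. Rsad2 had 93.2, 109 and 181 normalized counts in the controls against 55.6, 41.6 and 62 in the IL-4 cultures. Control replicate 3 was the highest, and all 3 IL-4 cultures lay below the lowest control. The log2 fold change was -1.27 ± 0.28 (adjusted p = 0.00888, edgeR). Cmpk2 had 80.8, 81.6 and 114 in the controls against 46, 36.3 and 35.1, a log2 fold change of -1.23 ± 0.20 (adjusted p = 0.00191, edgeR). Ifi44, which encodes an interferon-inducible protein of the cytoplasm, had 101, 66.2 and 62.9 against 18.2, 28.8 and 32. Its log2 fold change of -1.53 ± 0.28 was the most negative of the 40 members (adjusted p = 0.00309, edgeR). Per length these are among the weakest members, with control means of 1.27 FPKM for Rsad2, 1.08 for Cmpk2 and 0.99 for Ifi44, and only Oas3 at 0.857 was lower.

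The more abundant effectors behaved differently from each other. Lgals3bp, which encodes a secreted glycoprotein, had 7920, 6980 and 7223 normalized counts in the controls against 10193, 10291 and 11044 in the IL-4 cultures. Every IL-4 culture was above every control, and the gene rose by a log2 fold change of 0.51 ± 0.07 (adjusted p = 0.000673, edgeR). Ifitm3, which blocks the fusion of viruses with endosomes, had the highest level of all members at 425 ± 30.3 FPKM in controls and 317 ± 74.6 FPKM with IL-4 (SD, n = 3). Its normalized counts were 6777, 6208 and 7013 against 4959, 4837 and 7030. Replicates 4 and 5 lay below the controls and replicate 6 above all of them, and the gene was not called (log2 fold change -0.25, adjusted p = 0.208, edgeR). Without replicate 6 it was called, at -0.44 (adjusted p = 0.000198, edgeR). Trim30a, a tripartite motif gene, fell from 1027, 1078 and 1136 normalized counts to 901, 797 and 750 (log2 fold change -0.40, adjusted p = 0.00638, edgeR). The expected counts of Trim30a were not whole in any library, as happens where reads are divided between similar transcripts.

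The other members of that group were not called. Bst2, which encodes the virion tether tetherin, had a log2 fold change of 0.06 with a 95% interval from -0.20 to 0.32, and it turned to -0.11 with library totals. Xaf1 was at 0.07 and likewise turned to -0.10 with library totals. Ifi35, Samd9l and Rtp4 were at -0.00, -0.17 and -0.16. The interval of Rtp4 ran from -0.54 to 0.22, so it holds both 0 and a change of the size seen in Ifit1 (-0.47).

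**Figure D3:**
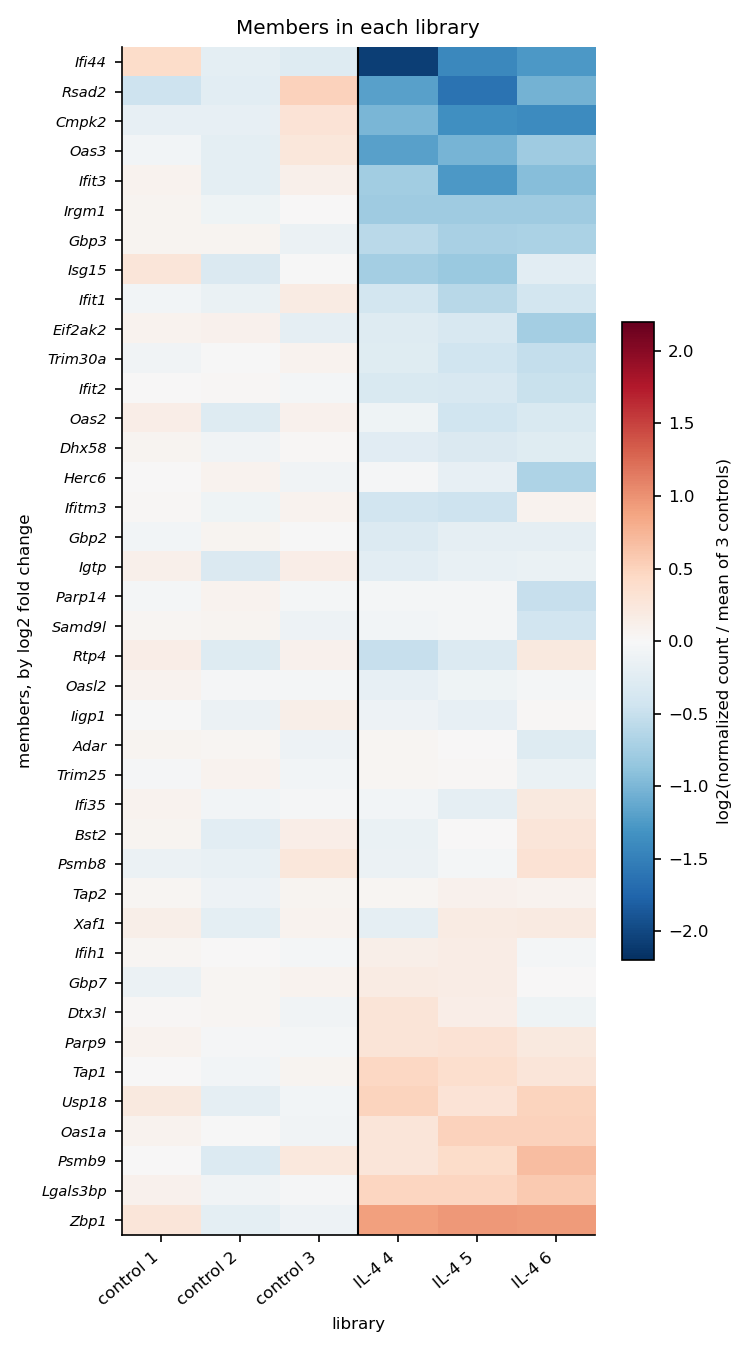
Log2 ratio of each library's normalized count to the mean of the 3 controls, for the 40 members (rows, from the most negative to the most positive fold change) in the 6 libraries (columns). The top rows are blue in all 3 IL-4 libraries, the bottom rows red, and in the middle IL-4 replicate 6 often has another colour than replicates 4 and 5.

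Among the ISG15 conjugation genes, the modifier and its protease had opposite signs. Isg15, the ubiquitin-like modifier, had 442, 295 and 362 normalized counts in the controls against 218, 208 and 313 in the IL-4 cultures. Replicate 6 overlapped the controls, and the log2 fold change of -0.57 ± 0.19 did not pass the test (adjusted p = 0.0514, edgeR). It passed with DESeq2 (adjusted p = 0.0152) and, at -0.78, without replicate 6 (adjusted p = 0.0023, edgeR). Over all 12 alternatives its adjusted p ran from 0.0023 to 0.181. Usp18, which removes ISG15 and also holds back IFNAR2 signalling, had 196, 146 and 161 against 235, 206 and 235. It rose by a log2 fold change of 0.43 ± 0.13 (adjusted p = 0.0336, edgeR), without overlap of the groups. The call of Usp18 was lost without control replicate 2 or 3 or IL-4 replicate 4 (adjusted p = 0.115, 0.0955 and 0.0855), and with library totals (0.153). The ligase genes Herc6, at -0.26, and Trim25, at -0.02, were not called, and Trim25 turned to 0.04 without replicate 6.

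The 2-5A synthetases also split. These enzymes make the 2-5A signal that switches on the nuclease RNase L. Oas3 fell from 103, 93.1 and 129 normalized counts to 47.1, 53.4 and 63 (log2 fold change -0.99 ± 0.18, adjusted p = 0.00323, edgeR). Oas1a rose from 384, 360 and 342 to 434, 512 and 513 (log2 fold change 0.43 ± 0.09, adjusted p = 0.00841, edgeR). In neither gene did the groups overlap. Oas2, which lies 3211 bases from Oas3 on chromosome 5, had a log2 fold change of -0.28 and was not called, and neither was Oasl2 at -0.11. The expected counts of Oas1a and Oas3 were not whole in any library, so part of their reads was divided among similar transcripts. The call of Oas1a was lost with library totals (log2 fold change 0.25, adjusted p = 0.0645).

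Of the nucleic acid sensing genes, Zbp1 showed the largest increase of all members. It encodes a sensor of Z-form nucleic acid that can start necroptosis. Zbp1 had 283, 201 and 217 normalized counts in the controls against 438, 453 and 449 in the IL-4 cultures. The IL-4 cultures lay close together and far above the controls, and the log2 fold change was 0.93 ± 0.13, or 1.91-fold (adjusted p = 0.000734, edgeR). Eif2ak2, the kinase PKR that stops translation on double-stranded RNA, had 1534, 1561 and 1275 normalized counts in the controls against 1197, 1147 and 870. It was called lower at -0.44 (adjusted p = 0.0304, edgeR), and the call was lost without control replicate 1 or 2 or IL-4 replicate 5 (adjusted p = 0.106, 0.104 and 0.0532). The expected counts of Eif2ak2 were not whole in any library. Dhx58, which encodes the RNA helicase LGP2, was called lower at -0.28 (adjusted p = 0.0318, edgeR). That call was lost with DESeq2 (0.0619) and without any single library other than IL-4 replicate 6. Ifih1, which encodes the sensor MDA5, was at 0.09 and turned to -0.09 with library totals, and the RNA editing gene Adar was at -0.07 and turned to 0.03 without replicate 6. Neither was called.

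Of the 6 interferon-inducible GTPases, 3 fell and the other 3 were not called. That is 50% lower, beside 18.4% of all genes tested. These proteins attack the vacuoles of intracellular pathogens. Irgm1, a regulator of the other immunity-related GTPases, had 1124, 1010 and 1085 normalized counts in the controls against 623, 621 and 624 in the IL-4 cultures. Its 3 IL-4 values were nearly equal, and the log2 fold change of -0.79 ± 0.07 had the smallest adjusted p of all members (4.99e-05, edgeR). Gbp3 fell from 253, 255 and 223 to 162, 148 and 150 (log2 fold change -0.67, adjusted p = 0.00114, edgeR). Gbp2 was called lower at -0.23 (adjusted p = 0.0403, edgeR), and this call was lost with DESeq2 (0.0641) and without any single library other than IL-4 replicate 6. Igtp at -0.18 and Iigp1 at -0.09 were not called, nor was Gbp7 at 0.11, which turned to -0.06 with library totals. Gbp2, Gbp3 and Gbp7 lie on chromosome 3, with 9864 bases between Gbp7 and Gbp3 and 47449 between Gbp3 and Gbp2.

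Of the 4 antigen processing members, 1 was called, as higher. This share of 25% is near the 19% of all genes tested that were called higher. Tap1 and Tap2 encode the transporter that carries peptides into the endoplasmic reticulum, and Psmb8 and Psmb9 encode immunoproteasome subunits. The 4 genes lie in a row on chromosome 17, with 225 bases between Psmb9 and Tap1. Tap1 rose from 665, 639 and 691 normalized counts to 909, 857 and 796 (log2 fold change 0.36 ± 0.07, adjusted p = 0.00605, edgeR), a call that was lost with library totals (0.0673). Psmb9 had 87.5, 70.1 and 102 against 104, 115 and 138. These groups did not overlap, but the log2 fold change of 0.46 ± 0.18 was not called (adjusted p = 0.075, edgeR). Tap2 at 0.07 and Psmb8 at 0.06 were not called and turned to -0.10 and -0.11 with library totals.

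Parp9 and Dtx3l encode a mono-ADP-ribosyltransferase and its ubiquitin ligase partner. Parp9 rose from 1195, 1110 and 1103 normalized counts to 1379, 1419 and 1322 (log2 fold change 0.27 ± 0.06, adjusted p = 0.0105, edgeR), and the call was lost with library totals (0.214) and without control replicate 2 (0.053). Dtx3l was at 0.12, was not called and turned to -0.06 with library totals. The records of these genes overlap by 558 bases on chromosome 16, their expected counts were not whole in any library, and whether the counting used strand is not given in the sources used here. Parp14, a relative that has been linked to STAT6, was at -0.18 and was not called.

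The levels per length spanned a wide range. In control cultures Ifitm3 (425 FPKM), Lgals3bp (129 FPKM) and Bst2 (73 FPKM) were the 3 highest members, and Isg15 (19.7 FPKM) and Irgm1 (18.3 FPKM) came next. The SD of Isg15 (4.05 FPKM, n = 3) was larger than the gap between these 2, so their order is not resolved. The median control level was 5.25 FPKM among the 13 lower members, 7.91 FPKM among the 6 higher members and 6.96 FPKM among the 21 not called. The summed level of all 40 members was 845 to 953 FPKM in controls and 724 to 901 FPKM with IL-4, with Ifitm3 as the largest part. FPKM values are scaled to library totals, so they move like that setting and not like TMM.

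The genes upstream of the members were examined with the same fit, to see which ligands and signalling components were present. Of 21 interferon ligand genes, 16, among them Ifnb1, were listed in no library. A count of 0 allows up to 3 counts per library. Ifng, Ifne, Ifnk and Ifna13 had at most 2 counts in any library. Only Ifnz passed the filter, with 11, 14 and 17 counts in controls and 4, 8 and 7 with IL-4, and it was not called (log2 fold change -0.98, adjusted p = 0.0621, edgeR).

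Of 6 interferon receptor genes, 5 passed the filter on low counts, and Ifnlr1, with at most 8 counts in any library, did not. The kinase genes Jak1, Jak2 and Tyk2 passed too. Ifnar2 rose from 2124, 2041 and 2187 normalized counts to 2634, 2738 and 2810 (log2 fold change 0.37, adjusted p = 0.00155, edgeR), while its partner Ifnar1 was at -0.18 and was not called. In the JAK-STAT branch, Jak2, which serves the interferon gamma receptor, rose by 0.58 (adjusted p = 0.000583, edgeR). Stat2 at 0.11, Irf9 at 0.01, Jak1 at 0.15 and Tyk2 at 0.18 were not called.

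Interferon regulatory factors (IRFs) moved in both directions. Irf4, a factor of alternatively activated macrophages, had 4.75, 13.4 and 11.3 normalized counts in controls and 144, 145 and 103 with IL-4 (log2 fold change 3.72, adjusted p = 3.56e-05, edgeR). Irf2, which competes with IRF1, rose by 0.55 (adjusted p = 0.000687, edgeR). Irf8, a factor of monocytes and macrophages, fell from 874, 889 and 1007 to 402, 385 and 450 (log2 fold change -1.16, adjusted p = 3.23e-05, edgeR). Irf7, the factor that amplifies type I interferon, was at -0.17, and Irf1, Irf3, Irf5 and Irf9 were at 0.28, 0.00, -0.23 and 0.01. None of these 5 was called.

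Genes that restrain interferon signalling moved in both directions, with 3 of 7 higher and 3 lower. That is 42.9% each way, beside 19% higher and 18.4% lower over all genes tested. Socs1, the suppressor of cytokine signalling that blocks JAK kinases, had 120, 91.2 and 116 normalized counts in controls and 840, 960 and 1200 with IL-4. It rose by a log2 fold change of 3.19 ± 0.16 (adjusted p = 3.41e-06, edgeR). Samhd1, a nucleotide hydrolase that limits nucleic acid sensing, rose by 0.87 (adjusted p = 2.07e-05, edgeR), and the phosphatase gene Ptpn2 by 0.48 (adjusted p = 0.00116, edgeR). The phosphatase gene Ptpn6, highly expressed in blood cells, fell from 1339, 1479 and 1705 to 432, 506 and 554 (log2 fold change -1.60, adjusted p = 2.54e-05, edgeR). Socs3 fell by 0.39 and the DNA exonuclease gene Trex1 by 0.40 on the log2 scale (adjusted p = 0.00202 and 0.0189, edgeR). Pias1 was at -0.06 and was not called.

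Among 11 nucleic acid receptors and adaptors, 5 were lower and 1 was higher. These shares of 45.5% and 9.09% stand beside 18.4% and 19% of all genes tested. Ddx58, which encodes RIG-I and is the relative of Ifih1 and Dhx58, was called lower at -0.31 (adjusted p = 0.0439, edgeR). Chosen after its values were seen, the endosomal receptor gene Tlr9 was the most negative of this list at -4.67 (adjusted p = 4.29e-05, edgeR), from 112, 171 and 130 normalized counts to 6.42, 8.54 and 1.03.

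A longer list of 71 other interferon-stimulated genes had 65 that could be tested, of which 17 were higher and 14 lower. These shares of 26.2% and 21.5% are near the 19% and 18.4% of all genes tested, and the median log2 fold change was 0.01. Stat2, Irf7, Irf9 and Ddx58 are also among the genes of this list. The dynamin-like genes Mx1 and Mx2 were weakly expressed at 0.36 and 0.617 FPKM in controls. Their log2 fold changes of -0.57 and -0.18 were not called (adjusted p = 0.237 and 0.646, edgeR). Family members outside the 40, named after their values were seen, moved both ways. Ifit3b fell by 1.36 on the log2 scale (adjusted p = 0.00113, edgeR), as its relatives Ifit1, Ifit2 and Ifit3 did. Oasl1 rose by 1.57 (adjusted p = 8.36e-05, edgeR) and Gbp11 by 2.19 (adjusted p = 3.93e-05, edgeR). Ifit3b and Gbp11 have near-identical relatives, so reads may be divided between them. Cd274, which encodes the checkpoint ligand PD-L1, rose by 2.73 (adjusted p = 2.02e-07, edgeR).

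Class I presentation genes outside the 40 were higher in 10 and lower in 0 of 15 tested, with a median log2 fold change of 0.36, beside the background of 19% higher and 18.4% lower (edgeR). At an unadjusted p under 0.05, 1 gene of this list was lower, and DESeq2 also called 10 higher and 0 lower. B2m, the light chain of all class I molecules, rose from 13924, 13393 and 15728 normalized counts to 19170, 20673 and 24697 (log2 fold change 0.58, adjusted p = 0.00331, edgeR). Tapbp, which encodes the tapasin that joins class I to the TAP transporter, rose by 0.36 (adjusted p = 0.00127, edgeR). Of the proteasome subunits, Psmb10, the third immunoproteasome subunit beside Psmb8 and Psmb9, rose by 0.56 (adjusted p = 0.0126, edgeR). The constitutive subunits Psmb5, Psmb6 and Psmb7, which these 3 replace, were at 0.06, 0.11 and -0.07 and were not called.

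**Figure D4:**
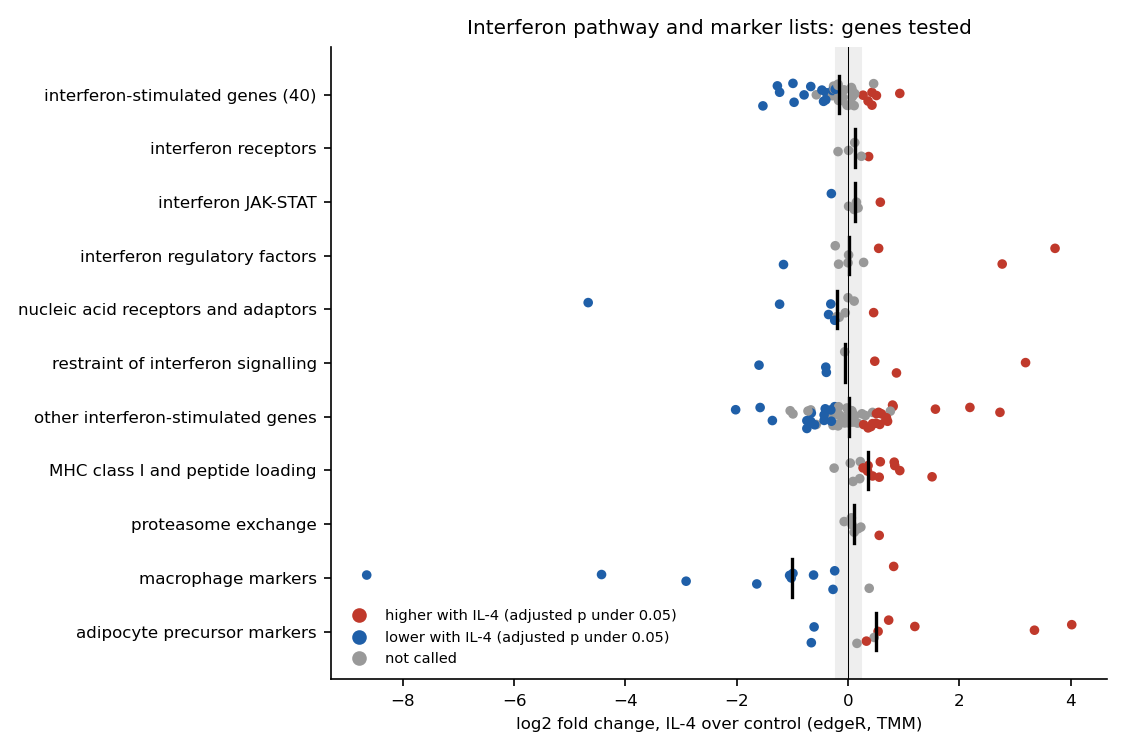
Log2 fold changes of IL-4 over control cultures for the genes tested in the member list and 10 other lists, with a black bar at each median and a grey band from -0.21 to 0.23, the quartiles of all genes tested. The class I list has its median at 0.36 and the member list at -0.16. The macrophage marker list has its median at -1.0, with genes on both sides of 0.

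Promoter letters were compared with the direction of change. RefSeq promoters, from 250 bases before to 50 after the start, were at hand for 31 of the 40 members. Entries were missing for Usp18, Oas2, Dhx58, Zbp1, Rtp4, Iigp1, Tap2, Parp9 and Parp14. Among these, Usp18, Zbp1 and Parp9 were higher with IL-4 and Dhx58 was lower. The higher members are thus covered less well than the lower ones, and few of them can be compared. The ISRE core was found in 16 of 31 members, or 51.6%, and in 3.99% of 27025 genes. The 16 comprise 9 members that were lower with IL-4, 1 that was higher and 6 not called. The 15 members without a match comprise 3 lower, 2 higher and 10 not called. The 9 lower members with a match are Ifit1, Ifit3, Oas3, Rsad2, Gbp2, Gbp3, Irgm1, Trim30a and Eif2ak2, and the higher one is Oas1a. In Eif2ak2, Ifih1 and Ifitm3 the matches lie after the start, so that 13 members hold one in the 250 bases before it.

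The STAT6-type site was less frequent. Its letters TTCNNNNGAA stood in 4 of 31 members against 8.01% of all genes. The 4 were Dtx3l, Gbp3, Ifit2 and Oas1a. In Oas1a, 2 STAT6-type matches began 182 and 27 bases before the start, and the second overlaps the ISRE match that is printed above. These matches are descriptions of the letters and were not tested as binding sites.

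**Figure D5:**
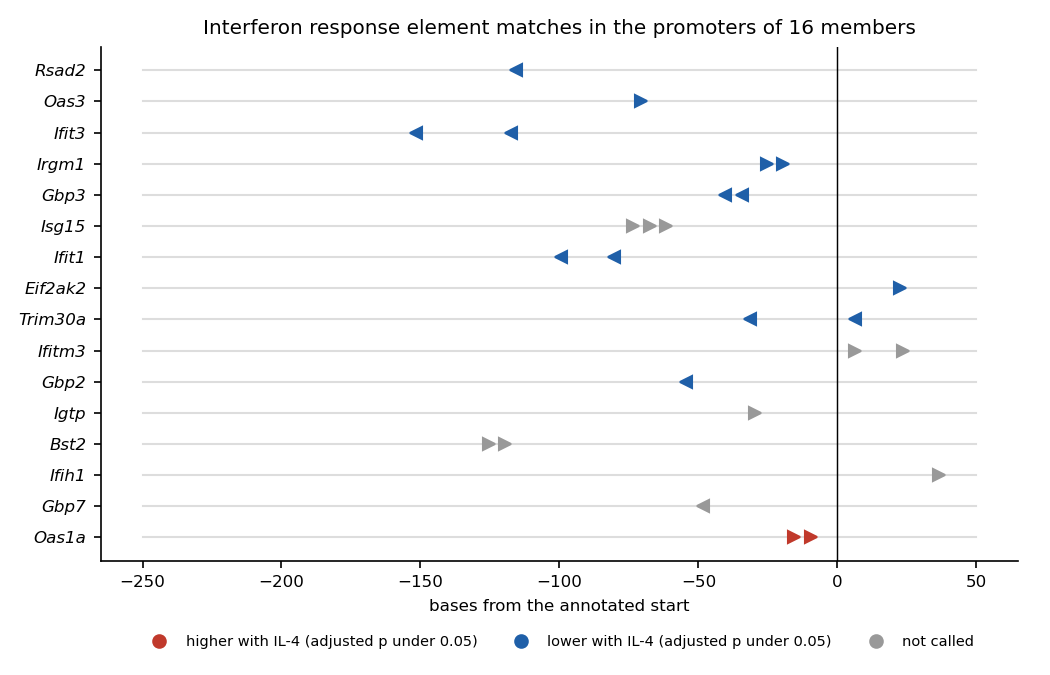
Positions of ISRE core matches (arrowheads, pointing along the strand of the match) in bases from the annotated start for the 16 members with a match, ordered by log2 fold change from Rsad2 to Oas1a. Blue members were lower, the red one higher and grey ones not called with IL-4; the matches lie between 156 bases before the start and 41 after it.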

How the data were processed

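The deposited files hold, per gene, expected counts that the authors estimated with RSEM and Bowtie2 from reads filtered with SOAPnuke, and FPKM values, which the authors normalised for transcript length and the number of mapped reads. HISAT, StringTie and the build mm10 are named too, and versions are not given in the sources used here. Expected counts summed to 28526782 to 29057787 per library. Intervals are 1.96 SE on either side and are narrower than 95% intervals of the test would be. A row without a gene symbol held at most 0.000225% of a library and was left out, and genes without a row in a library were set to 0.

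Counts were rounded and tested with edgeR 4.0.16 (R 4.3.3), with TMM scaling, filterByExpr (minimum count 10) and Benjamini-Hochberg adjustment over 14009 genes. A gene was called at an adjusted p under 0.05. Normalized counts are counts scaled by TMM to the mean library. Alternatives were DESeq2 1.42.0, other scalings, no filter, limma 3.58.1 on log2 FPKM with pseudocounts of 1 and 0.1, and each library left out. The fit was tested on simulated data. The members and lists were chosen with earlier results of these data known. The text names all members, the genes of the ligand, receptor, JAK-STAT, IRF and restraint lists, direct partners of members, and markers by level; some of these genes are not reported here. The comparison by transcript length was added after seeing the data. Motifs were counted in RefSeq promoters of GRCm38.p6, which is mm10. The small RNA libraries of the series were not used here.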

Additional observations from a re-analysis of the deposited data

How the results depend on the processing

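With 3 cultures per group, 11 of the 19 called members (Cmpk2, Gbp3, Ifi44, Ifit2, Ifit3, Irgm1, Lgals3bp, Oas3, Rsad2, Trim30a and Zbp1) kept their direction and call under all 12 alternatives. With library totals, 1704 genes were higher and 4963 lower, 2 members were higher and 21 lower, and 40 genes of the pathway lists were lower in place of 22. With limma on log2(FPKM + 1) these values were 1697, 4916, 2, 20 and 38, and on log2(FPKM + 0.1) they were 1694, 4904, 2, 18 and 38. Leaving out 1 library gave 2017 to 3199 genes higher and 1911 to 3014 lower over all genes, 4 to 7 members higher and 9 to 16 lower, and 34 to 42 genes of the pathway lists higher and 19 to 26 lower. The count without IL-4 replicate 5 was the lowest of the lower members, and that without replicate 6 the highest. No paired analysis was possible because the labels number the control cultures 1 to 3 and the IL-4 cultures 4 to 6, so the groups share no number.

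Direction changed only in members that were not called. With library totals, log2(FPKM + 1) and log2(FPKM + 0.1) in turn, Ifih1 was at -0.09, -0.07 and -0.09, Bst2 at -0.11, -0.12 and -0.12, Xaf1 at -0.10, -0.09 and -0.12, Gbp7 at -0.06, -0.04 and -0.05, Tap2 at -0.10, -0.09 and -0.10, Psmb8 at -0.11, -0.11 and -0.12, and Dtx3l at -0.06, -0.05 and -0.06. With 1 library left out, Trim25 ranged from -0.05 to 0.04, Adar from -0.12 to 0.03, Bst2 from -0.06 to 0.16, Xaf1 from -0.03 to 0.19, Ifi35 from -0.12 to 0.09 and Psmb8 from -0.08 to 0.19. When only the 250 bases before the start were searched, 13 and 3 members held the ISRE and STAT6-type letters. Members at low counts, such as Ifi44, Cmpk2 and Rsad2, have the widest errors, and 3 cultures per group limit what changes can be told from 0. The causes of these differences were not tested.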
